A study of Mus musculus with 11 samples.

Results

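The transcripts of 9 genes that mark epithelial stem cells or respond to Wnt signalling were followed in the skin and the small intestine of mice. The genes were *Lgr5*, *Olfm4*, *Ascl2*, *Smoc2*, *Axin2*, *Rnf43*, *Prom1*, *Tnfrsf19* and *Sox9*, chosen by name from a table of 45777 genes, and all 9 were in it. BALB/c mice of 8 to 10 weeks received 62.5 mg per day of vehicle cream (Vaseline) or of cream with 5% imiquimod (IMQ), a ligand of TLR7 that causes a psoriasis-like dermatitis. The labels give cream on the back and right ear for 5 to 8 days, and the methods give the shaved back for 5 to 7 days. The days of single mice were not given. There were 3 vehicle (1 to 3) and 3 IMQ (4 to 6) libraries of skin, and 3 vehicle (7 to 9) and 2 IMQ (10 and 11) libraries of small intestine, with 44995414 to 58526384 counts each. The labels do not state that each library came from a separate mouse, so the p-values measure the spread between these samples.

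Wnt proteins bind Frizzled and LRP receptors at the cell surface and stabilize beta-catenin, which then switches on target genes together with transcription factors of the TCF/LEF family. R-spondins amplify the signal by binding LGR receptors and clearing the ubiquitin ligases RNF43 and ZNRF3, which remove Frizzled from the membrane. In the small intestine this pathway maintains the stem cells at the crypt base. In the skin it drives the growth phase of the hair follicle, and stem cells that carry LGR5 lie in the lower follicle.

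The sequences upstream of 4 starts are shown because *Tnfrsf19* was the member whose change with IMQ was called in every fit of the skin, and because *Axin2* and *Rnf43* had the most similar profiles to each other. RefSeq promoters (GRCm38.p6) were given for 6 of the 9 genes, with 9 starts in all, and the 250 bases before each start were read. Capitals mark a TCF/LEF core (CTTTGA or CTTTGT) or the CAGCTG E-box bound by Ascl factors, searched on both strands. The lines give *Tnfrsf19* at chr14:61046856-61047105 and chr14:61037988-61038237 (both minus strand), *Axin2* at chr11:108920099-108920348 (plus strand) and *Rnf43* at chr11:87662837-87663086 (plus strand).
Tnfrsf19 outer start: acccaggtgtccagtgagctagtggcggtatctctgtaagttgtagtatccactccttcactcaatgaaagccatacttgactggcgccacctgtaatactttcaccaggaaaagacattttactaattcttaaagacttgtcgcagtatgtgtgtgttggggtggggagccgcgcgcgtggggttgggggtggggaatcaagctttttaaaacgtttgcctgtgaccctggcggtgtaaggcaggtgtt
Tnfrsf19 inner start: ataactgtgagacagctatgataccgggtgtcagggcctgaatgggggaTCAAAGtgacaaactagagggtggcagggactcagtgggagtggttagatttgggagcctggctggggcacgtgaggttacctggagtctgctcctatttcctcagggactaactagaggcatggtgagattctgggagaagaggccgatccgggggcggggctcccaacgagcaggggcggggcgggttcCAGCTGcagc
Axin2: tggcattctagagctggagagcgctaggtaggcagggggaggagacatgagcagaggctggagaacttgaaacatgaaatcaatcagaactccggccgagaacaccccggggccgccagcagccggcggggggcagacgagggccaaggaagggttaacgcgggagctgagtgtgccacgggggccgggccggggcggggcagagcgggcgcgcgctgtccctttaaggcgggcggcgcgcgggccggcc
Rnf43: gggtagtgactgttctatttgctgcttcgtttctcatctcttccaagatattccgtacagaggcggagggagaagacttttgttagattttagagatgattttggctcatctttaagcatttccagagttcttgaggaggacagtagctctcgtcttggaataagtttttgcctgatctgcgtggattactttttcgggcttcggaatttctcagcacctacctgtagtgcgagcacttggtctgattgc
Of the 9 windows, 1 held a match, the inner start of *Tnfrsf19*. It had TCAAAG, the reverse complement of CTTTGA, with its first base at position -201, and CAGCTG at -10. A TCF/LEF core was present in 27.6% of the 32851 RefSeq promoter windows of this length, and CAGCTG in 4271 of them. GC content was 69.2% before the *Axin2* start, 44.4% before the *Rnf43* start shown and 45.2% before its other start. The *Axin2* window lies inside the gene as annotated (108917828 to 108950783). The *Rnf43* window shown ends at the base before its gene (87663087). These starts are therefore of unlike position, and no comparison of the sequences is drawn from them.

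One skin library stood apart from its group. In vehicle 2, 11 genes of the growing hair follicle were at a median log2 level of 0.63 over the IMQ mean, compared with 6.92 in vehicle 1 and 7.37 in vehicle 3. The inner root sheath keratin *Krt25* had 8 counts in vehicle 2 against 19233 in vehicle 1 and 34381 in vehicle 3, whereas the follicle regulator *Foxn1* was at 75.5% of the mean of both. Vehicle 2 also held transcripts of all 11 enterocyte markers, with a median of 0.822% of what vehicle small intestine had. The results of the 9 genes in skin are therefore given with and without this library, and those of other genes as counts. The labels fitted the tissues otherwise: the 8 epidermis markers summed to at least 596594 normalized counts in each skin library and at most 209 in each library of small intestine.

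Among vehicle samples, the small intestine expressed *Olfm4*, a secreted glycoprotein of the crypt base, far above the other members. Levels of different genes were compared as FPKM (fragments scaled for gene length and library size). In vehicle small intestine *Olfm4* was at 301 ± 38.3 FPKM (SD, n = 3), followed by *Smoc2*, a matricellular protein, at 18.1 ± 1.52. *Prom1*, which encodes the membrane glycoprotein CD133, was at 11.7 ± 1.83 and *Axin2*, a scaffold of the beta-catenin destruction complex and feedback inhibitor, at 11.6 ± 2.02 FPKM, and their ranges overlapped. *Rnf43* followed at 7.08 ± 1.32 FPKM, with no overlap to its neighbours in the order. The transcription factors *Sox9* (3.75 ± 1.32) and *Ascl2* (2.64 ± 1.11) and the R-spondin receptor *Lgr5* (2.17 ± 0.24) could not be ordered, since neighbours overlapped, and *Tnfrsf19*, a receptor of the tumor necrosis factor family, was lowest at 1.22 ± 0.27 FPKM.

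In vehicle skin the order was different. *Smoc2* was highest at 33.6 ± 6.35 FPKM (SD, n = 3) and *Tnfrsf19* second at 20.6 ± 1.08, and neither overlapped its neighbours. *Sox9* (13.8 ± 4.25), *Axin2* (10.7 ± 0.72), *Lgr5* (9.61 ± 5.06) and *Rnf43* (4.72 ± 0.83) formed a series in which each overlapped the next. *Ascl2* (1.68 ± 0.60), *Prom1* (1.14 ± 0.23) and *Olfm4* (0.757 ± 1.28) were lowest and also overlapped. The large SD of *Olfm4* came from vehicle 2, the library with enterocyte transcripts.

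**Figure D1:**
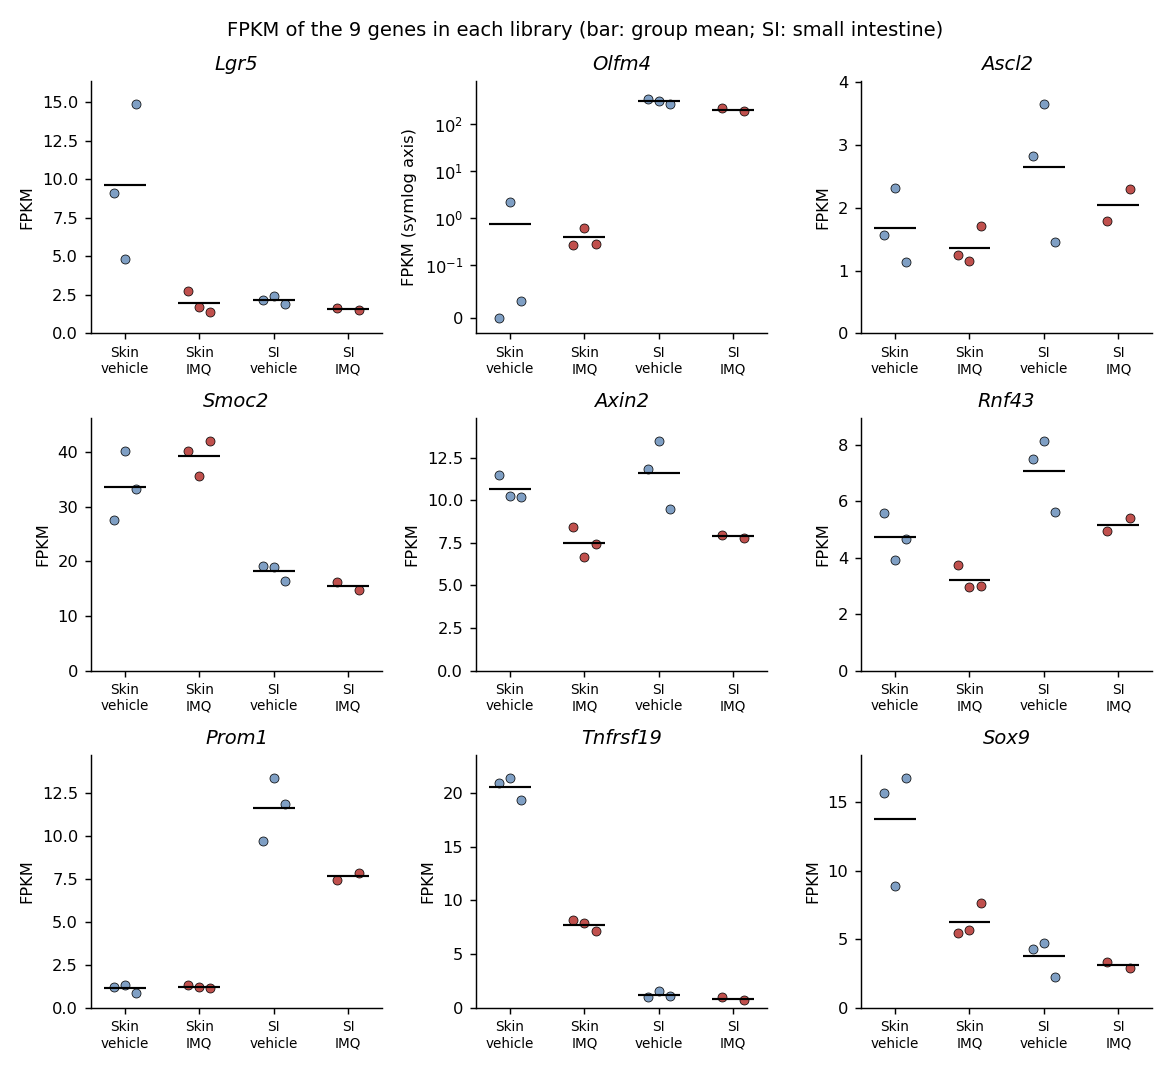
FPKM of each of the 9 genes (vertical axes, linear and from 0 except for *Olfm4*, which has a symlog axis) in the 11 libraries, by tissue and treatment; points are libraries, blue for vehicle and red for IMQ, and bars are group means. *Tnfrsf19* in skin lay between 19.3 and 21.4 FPKM with vehicle and between 7.19 and 8.14 with IMQ, and *Olfm4* was above 184 FPKM in each library of small intestine and at most 2.24 in each of skin.

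Of the 8 members with a count in all 11 libraries, 8 differed between vehicle skin and vehicle small intestine by the quasi-likelihood F test of edgeR (Benjamini-Hochberg) (adjusted p under 0.05), where 57.0% of all 18108 genes tested did (28.8% higher and 28.2% lower in skin) and 61.0% had an unadjusted p under 0.05. In skin *Tnfrsf19* was 12.0-fold (log2 3.59 ± 0.17 SE, adjusted p = 4.82e-08), *Lgr5* 3.18-fold (log2 1.67 ± 0.35, adjusted p = 0.00164) and *Sox9* 2.68-fold higher (log2 1.42 ± 0.26, adjusted p = 0.000685). *Smoc2* was 1.37-fold higher (log2 0.45 ± 0.16, adjusted p = 0.0321), and it was not called without skin vehicle 2 (log2 0.23, adjusted p = 0.121) or without vehicle 8 (0.0797) or 9 (0.0939) of small intestine. In small intestine *Prom1* was 14.0-fold (log2 -3.81 ± 0.21, adjusted p = 1.16e-07), *Ascl2* 2.09-fold (log2 -1.06 ± 0.36, adjusted p = 0.0273), *Rnf43* 2.04-fold (log2 -1.03 ± 0.17, adjusted p = 0.000332) and *Axin2* 1.47-fold higher (log2 -0.56 ± 0.14, adjusted p = 0.00451). *Olfm4* had 0 counts in 1 skin library and therefore did not pass the filter on low counts. Without the filter its log2 difference was -9.00 (adjusted p = 0.000734), and without that library, skin vehicle 1, it passed the filter at -8.40 (adjusted p = 0.000432). With limma on log2(FPKM + 0.01) the median of all genes moved from 0.01 to 0.45 and the calls from 5210 higher and 5111 lower to 8330 and 3196, and *Axin2* (log2 -0.11, adjusted p = 0.533) and *Ascl2* (log2 -0.61, adjusted p = 0.159) were not called. *Ascl2* was also not called without vehicle 1 or 3 of skin or 7 or 8 of small intestine, with adjusted p values from 0.0703 to 0.1055.

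In the skin, none of the 8 members tested rose with IMQ, and *Lgr5*, *Tnfrsf19* and *Sox9* fell. These were 3 of 8 members tested by the quasi-likelihood F test of edgeR (Benjamini-Hochberg), where 6.74% of 20512 genes were called, 2.69% lower and 4.05% higher. The log2 fold change was below 0 in 6 of the 8 members and in 51.5% of all genes, with medians of -0.48 and -0.01. In 5 of the 8, every IMQ library was below every vehicle library, as in 13.3% of all genes. Without vehicle 2 the same 3 genes were called, where 12.1% of genes tested were.

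*Tnfrsf19* had 4825, 5431 and 4318 normalized counts in vehicle skin and 2069, 1959 and 1698 in IMQ-treated skin. The groups were far apart and vehicle 2 was the highest library. The gene fell by 1.35 on the log2 scale (SE 0.13, 95% interval -1.66 to -1.03, adjusted p = 0.00432, the quasi-likelihood F test of edgeR (Benjamini-Hochberg)). It was called without each of the 6 libraries in turn, with an adjusted p of 0.00555 without vehicle 2 and 0.0298 at most. In bulk skin, fewer cells that express a gene and less of its RNA per cell cannot be told apart.

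*Lgr5* had 2251, 1271.5 and 3624.5 normalized counts with vehicle and 751, 443 and 352 with IMQ. The groups did not overlap, but the vehicle libraries spread widely and vehicle 2 was the lowest of them, at 43.3% of the mean of vehicles 1 and 3. The gene fell by 2.21 on the log2 scale (SE 0.44, 95% interval -3.25 to -1.17, adjusted p = 0.0340 in the same test). Without vehicle 2 it fell by 2.51 (adjusted p = 0.013). Without any other library it lost the call, with adjusted p values of 0.0579 to 0.145, as it did with limma on log2(FPKM + 1) (0.0655).

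*Sox9*, which marks stem cells of the hair follicle bulge and its outer root sheath, had 3397, 2075 and 3590 (3589.7) normalized counts with vehicle and 1288, 1289.5 and 1693 with IMQ. Vehicle 2 was again the lowest vehicle library, at 59.4% of the mean of the others, and still above all 3 IMQ libraries. The gene fell by 1.09 on the log2 scale (SE 0.23, 95% interval -1.63 to -0.54, adjusted p = 0.0416, the quasi-likelihood F test of edgeR (Benjamini-Hochberg)). Without vehicle 2 it fell by 1.29 (adjusted p = 0.00778), and without any other library it lost the call, with adjusted p values of 0.0709 to 0.169. *Sox9* was also not called by limma-voom (adjusted p = 0.0512), without the filter on low counts (0.0535), or by limma on log2(FPKM + 0.01) (0.0650) and log2(FPKM + 1) (0.0907).

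The feedback inhibitors showed smaller differences. *Axin2* had 2614, 2522 and 2266 normalized counts with vehicle and 2083, 1579.5 and 1729.5 with IMQ, with no overlap (log2 -0.46 ± 0.14 SE, adjusted p = 0.0985). *Rnf43* had 1259.5, 952 and 1036.5 with vehicle and 921, 704 and 658.5 with IMQ (log2 -0.51 ± 0.18, adjusted p = 0.153), also without overlap. Neither passed edgeR's quasi-likelihood test, although both had an unadjusted p under 0.05 (0.0120 and 0.0262), as did 23.2% of all genes. *Axin2* passed in the Wald test of DESeq2 (adjusted p = 0.0453) and when the skin was tested in a model of all 11 libraries (0.0473). In vehicle 2 both genes were near the other vehicles, at 103% for *Axin2* and 82.9% for *Rnf43*, and without it their log2 fold changes were -0.44 (adjusted p = 0.120) and -0.59 (adjusted p = 0.1004).

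The remaining members overlapped between vehicle and IMQ skin, *Smoc2* and *Prom1* only through vehicle 2. *Smoc2* had 4095, 6389 and 4853 normalized counts with vehicle and 6502, 5539 and 6410.1 with IMQ (log2 0.27, 95% interval -0.16 to 0.69), and without vehicle 2 its log2 fold change was 0.46 (adjusted p = 0.0811). *Ascl2* ranged from 95.9 to 210.5 with vehicle and from 102 to 148.5 with IMQ (log2 -0.26, interval -1.06 to 0.54). Its highest library was vehicle 2, and without that library its log2 fold change was 0.10 (adjusted p = 0.862). *Prom1* ranged from 169 to 281 with vehicle and from 226 to 279.8 with IMQ (log2 0.15, interval -0.42 to 0.72), and without vehicle 2 its log2 fold change was 0.34 (adjusted p = 0.363).

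**Figure D2:**
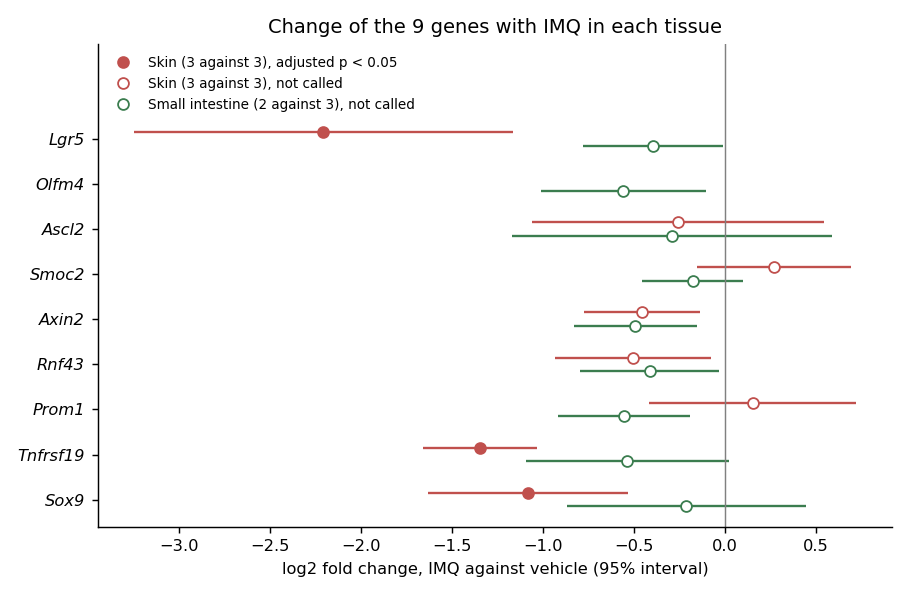
Log2 fold change of IMQ against vehicle with its 95% interval (horizontal axis) for each of the 9 genes in skin (red, 3 against 3 libraries) and small intestine (green, 2 against 3); filled points had an adjusted p under 0.05. The 3 filled points are *Lgr5* (-2.21), *Tnfrsf19* (-1.35) and *Sox9* (-1.09) in skin, and all 9 values of the small intestine lie between -0.56 and -0.18; *Olfm4* has no value in skin because 1 library had no count.

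The 3 genes that fell differed in how they stood to the growing hair follicle. Relative to the IMQ mean, *Lgr5* was at a log2 level of 1.301 in vehicle 2, between the IMQ libraries and vehicles 1 (2.12) and 3 (2.81), and *Sox9* was at 0.54 in vehicle 2 against 1.25 and 1.33. *Tnfrsf19* was at 1.51 in vehicle 2 against 1.34 and 1.18. The library in which hair follicle keratins were near the IMQ level thus had intermediate *Lgr5* and *Sox9* and a full vehicle level of *Tnfrsf19*. With 1 such library this is a description, and the part of the hair cycle in these results was not tested.

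**Figure D3:**
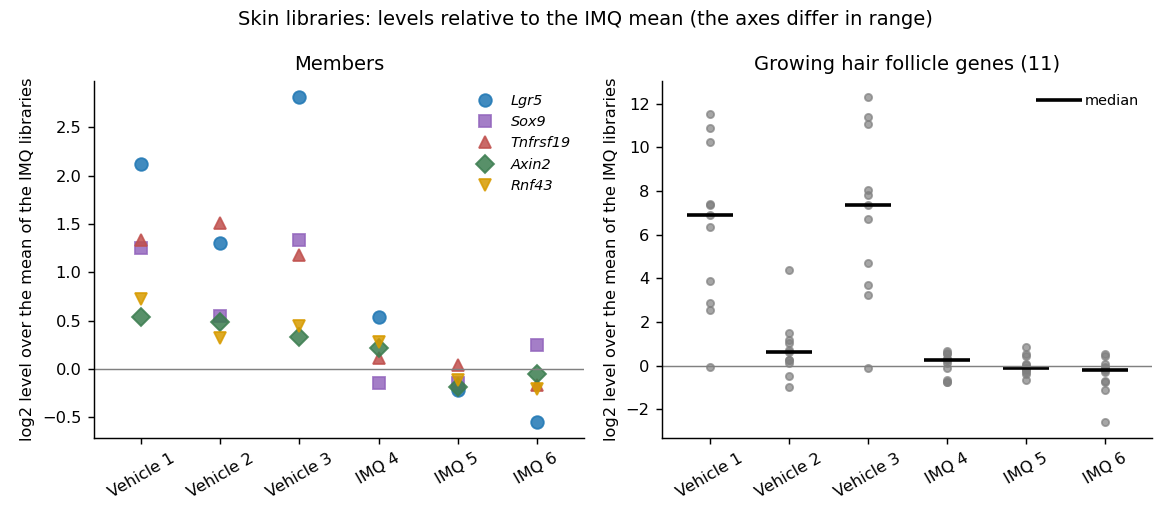
Log2 level over the mean of the 3 IMQ libraries (vertical axes, of different range) in each skin library (horizontal axis), for 5 of the members (left) and for the 11 genes of the growing hair follicle in the table (right; grey points are genes, bars are medians). In vehicle 2 the median of the follicle genes is 0.63, while *Tnfrsf19* stands at 1.51 and *Lgr5* at 1.301.

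*Olfm4* was scarce in skin and could not be tested with the other members. Vehicles 1, 2 and 3 had 0, 317 and 6 counts, where 0 counts allow up to 3, and the IMQ libraries had 40, 91 and 39. The groups overlapped only through vehicle 2, in which *Olfm4* stood at 0.588% of its level in vehicle small intestine and the 11 enterocyte markers at a median of 0.822%. For the other members, RNA of small intestine at that median would make up 9.01% of the *Prom1* of vehicle 2 and at most 1.85% of any other. In the unfiltered fit *Olfm4* differed by -0.96 on the log2 scale (adjusted p = 0.782).

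Without vehicle 2 and without the filter, a setting chosen after the data were seen, *Olfm4* was higher in IMQ-treated skin (log2 4.43, adjusted p = 0.0413, the quasi-likelihood F test of edgeR (Benjamini-Hochberg)). The fold rests on 0 and 6 counts in the vehicles and depends on the prior count. The enterocyte markers summed to 325 counts in IMQ 4, 415 in IMQ 5 and 38 in IMQ 6. In IMQ 6, 9 of the 11 were at 0 while *Olfm4* had 39 counts, and in IMQ 4 and 5 *Olfm4* was at 0.0710% and 0.153% of its intestinal level against medians of 0.0164% and 0.0215% for the markers. *Olfm4* is also known as a granule protein of neutrophils. Of 11 neutrophil markers 8 were tested, and 5 of these were higher in IMQ-treated skin, where 4.05% of all genes were. Of the 8, 1 had a log2 fold change below 0. *Ly6g*, *Ngp* and *Camp* lacked a count in some libraries and were not tested. *Ly6g* had 3, 0 and 0 counts with vehicle and 0, 9 and 6 with IMQ. *Ngp* had 0, 0 and 0 against 198, 0 and 21. *Camp* had 6, 0 and 17 against 40, 0 and 7. *Ltf*, which was tested, had 10, 9 and 6 against 87, 7 and 9. *Mpo* had 190, 264 and 57 counts with vehicle and 43, 20 and 31 with IMQ. The list shares *S100a8* and *S100a9* with the wound epidermis markers. The part of neutrophils in the *Olfm4* counts was not tested.

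**Figure D4:**
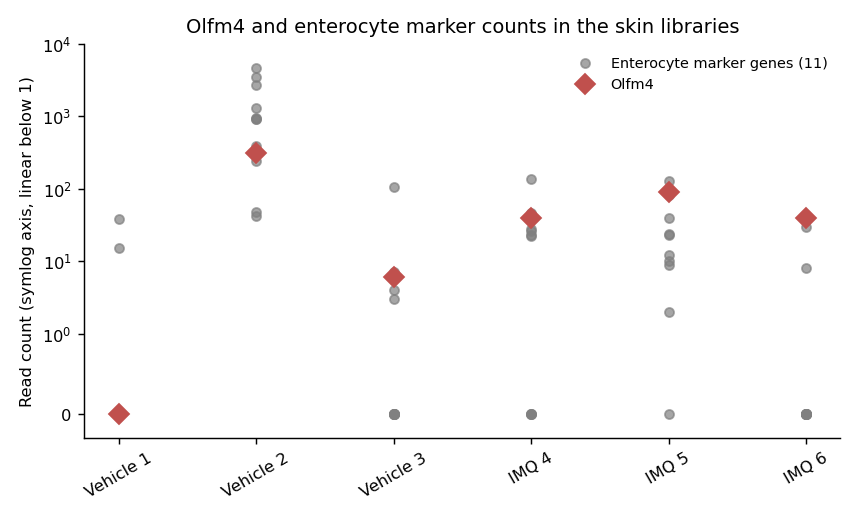
Read counts (symlog vertical axis, linear below 1) of *Olfm4* (red diamonds) and of 11 enterocyte markers (grey points) in the 6 skin libraries. In vehicle 2 *Olfm4* (317) lies within the enterocyte markers, whereas in IMQ 6 it has 39 counts and 9 of the 11 markers are at 0.

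In the small intestine all 9 members had a log2 fold change below 0, and none passed the test. A value below 0 was found for 53.7% of the 19965 genes tested, 2.95% were called in all, 2.77% higher and 0.170% lower. Of the 9 members, 5 had an unadjusted p under 0.05 (*Lgr5*, *Olfm4*, *Axin2*, *Rnf43* and *Prom1*), against 12.3% of all genes. In 7 members both IMQ libraries were below all 3 vehicle libraries, as in 13.9% of all genes. The median log2 fold change of the members was -0.42, compared with -0.02 over all genes.

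*Olfm4* had 54260.0, 46027 and 43135 normalized counts in vehicle and 33315 and 31482 in IMQ-treated small intestine. The groups did not overlap (log2 -0.56 ± 0.19 SE, 95% interval -1.01 to -0.11), but the adjusted p was 0.263 in the quasi-likelihood F test of edgeR (Benjamini-Hochberg). The Wald test of DESeq2 called it (adjusted p = 0.0151), and it called no other member. *Prom1* had 2122, 2675.5 and 2730.1 with vehicle and 1595 and 1822 with IMQ (log2 -0.55 ± 0.15, adjusted p = 0.151). It was called without vehicle 7 (adjusted p = 0.0478).

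*Axin2* had 3004, 3162 and 2475 normalized counts with vehicle and 1989 and 2099 with IMQ (log2 -0.49 ± 0.14 SE, adjusted p = 0.171). *Rnf43* had 1879.8, 1899 and 1458 with vehicle and 1211 and 1406 with IMQ (log2 -0.42 ± 0.16, adjusted p = 0.350). *Lgr5* had 601, 619 and 550.4 with vehicle and 444 and 453.5 with IMQ (log2 -0.40 ± 0.16, adjusted p = 0.389). In each of these 3 genes the highest IMQ library was below the lowest vehicle library.

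*Tnfrsf19* (278, 377 and 307.5 against 245 and 196 normalized counts) and *Smoc2* (3179, 2922 and 2812 against 2654 and 2594) also did not overlap, with log2 fold changes of -0.54 ± 0.24 and -0.18 ± 0.12 (SE). *Ascl2*, with 267, 321 and 141 normalized counts against 166 and 231, and *Sox9*, with 1042, 1067 and 562 against 787 and 747, overlapped. In both transcription factors vehicle 9 was the lowest library. Their log2 fold changes were -0.29 (95% interval -1.17 to 0.58) and -0.21 (-0.87 to 0.44).

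Whether the 2 tissues responded unequally was tested by an interaction term in a joint model of the 11 libraries. None of the 8 members tested passed the quasi-likelihood F test of edgeR (Benjamini-Hochberg), where 2.55% of 18108 genes did (1.70% higher and 0.856% lower in small intestine), and 4 had an unadjusted p under 0.05, against 16.9% of all genes. The log2 fold change was higher in small intestine than in skin by 1.81 ± 0.51 for *Lgr5* (adjusted p = 0.0967) and by 0.82 ± 0.23 for *Tnfrsf19* (adjusted p = 0.0971). For *Sox9* the difference was 0.87 ± 0.38 (adjusted p = 0.275) and for *Prom1* -0.69 ± 0.29 (adjusted p = 0.247). *Axin2* and *Rnf43* had almost the same log2 fold change in both tissues, with differences of -0.03 (95% interval -0.48 to 0.42) and 0.10 (-0.46 to 0.65). The Wald test of DESeq2 called *Lgr5* (adjusted p = 0.0127) and *Tnfrsf19* (adjusted p = 0.0317), and *Lgr5* was also called without skin vehicle 2 (adjusted p = 0.0166).

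Other genes of the Wnt pathway were called in the skin. Of 74 ligands, R-spondins, receptors, signal transducers and antagonists, 68 were tested, and 17 were lower and 3 higher with IMQ by the quasi-likelihood F test of edgeR (Benjamini-Hochberg). Over all genes 2.69% were lower and 4.05% higher. The numbers were 28 lower and 3 higher without vehicle 2, where 12.1% of all genes were called, and 1 and 1 without IMQ 5, where 1.24% were. Of the 27 genes called in skin among the 97 tested from the Wnt and stem cell lists, 27 were also called without vehicle 2, 14 without vehicle 3, 9 without IMQ 6, 8 without IMQ 4, 5 without vehicle 1 and 3 without IMQ 5. The median log2 fold change of these 68 genes was -0.63, and 55 of them were below 0.

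Among Wnt ligands, 3 of 15 fell and 2 rose. *Wnt10b* (log2 -2.67), *Wnt11* (-2.24) and *Wnt6* (-1.93) fell, and vehicle 2 was the lowest vehicle library in each. *Wnt16* (log2 2.20) and *Wnt10a* (0.51) rose. The median was -0.62, against -0.01 over all genes. Of 3 R-spondins tested, *Rspo1* fell (log2 -1.44, adjusted p = 0.0232), and *Rspo3* had a log2 fold change of -1.69 (adjusted p = 0.0709).

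Of 17 receptors, 6 fell and none rose, with a median log2 fold change of -0.91. They were the Frizzled receptors *Fzd2* (log2 -1.58), *Fzd10* (-1.31), *Fzd7* (-1.20) and *Fzd3* (-1.19) and the R-spondin receptors *Lgr4* (-1.27) and *Lgr6* (-1.17). Vehicle 2 was the lowest vehicle library in each of them except *Lgr6*. Over the 6 fits without a library, *Lgr6* was called in 5, *Fzd3* in 4 and *Fzd7* in 3. *Fzd2*, *Fzd10* and *Lgr4* were each called in 1. With *Lgr5*, all 3 LGR receptors of R-spondins were lower in IMQ-treated skin. Among 17 signal transducers 1 fell and 1 rose: the transcription factor *Lef1* was at 1270.3, 291 and 2121 normalized counts with vehicle and 137, 139.9 and 154 with IMQ (log2 -3.10, adjusted p = 0.0403). *Porcn*, the acyltransferase that Wnt proteins need for secretion, had 1120.1, 880.0 and 1131.5 with vehicle and 3180.0, 2971 and 2728 with IMQ (log2 1.503, adjusted p = 0.00359).

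Of 16 antagonists tested, 6 fell and none rose, with a median log2 fold change of -0.88. The feedback inhibitors and Wnt targets *Notum* (log2 -3.46) and *Nkd1* (-1.07) were among them, as were the secreted inhibitors *Wif1* (-2.14), *Sfrp1* (-1.90) and *Frzb* (-1.20), and *Kremen2* (-1.98). Vehicle 2 was the lowest vehicle library in each of these. Among 13 other Wnt target genes tested, 4 fell (*Notum*, *Lef1*, *Lgr6* and *Nkd1*) and 2 rose, *Cd44* (log2 1.01) and *Myc* (0.75). The 4 that fell are the same calls already counted among the antagonists, signal transducers or receptors. Ligands, receptors and inhibitors of the pathway thus all had members that fell, and the target genes did not move in 1 direction.

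Of 12 other hair follicle stem cell genes, 5 fell, with a median log2 fold change of -1.29, where 2.69% of all genes were lower. Other cells and states moved in the same libraries. Of 7 wound epidermis markers 6 rose (median log2 fold change 4.63), and of 9 leukocyte markers 3 rose (0.71), where 4.05% of all genes did. None of either fell. Their part in the results of the follicle genes was not tested. *Krt15*, a keratin of the bulge, had 25868, 44237 and 28298 normalized counts with vehicle and 6585, 6632 and 7389 with IMQ, with the highest value in vehicle 2 (log2 -2.26, adjusted p = 0.00448). The bulge transcription factors *Lhx2* (log2 -3.44) and *Foxc1* (-1.41), the receptor *Lgr6* and *Lrig1* (-0.83) fell as well. Vehicle 2 was the lowest vehicle library in *Lhx2* (1323 normalized counts against 4747 and 5184) and *Lrig1*, but not in *Foxc1* or *Lgr6*. Over the 6 fits without a library, *Krt15* was called in 6, *Foxc1* and *Lgr6* in 5, *Lrig1* in 3 and *Lhx2* in 2. The sonic hedgehog target *Gli1* (log2 -3.05, adjusted p = 0.0644) and *Tbx1* (-2.24, adjusted p = 0.0570) did not pass. In vehicle 2 *Gli1* had 853 normalized counts, below IMQ 4 (875), against 7518 and 6367 in vehicles 1 and 3. *Tbx1* had 769 in vehicle 2 against 2467 and 3839. Of 16 other crypt base genes tested in skin, *Rgmb* (log2 -0.69) and *Lrig1* fell, *Cd44* rose and the median was -0.52. *Lgr6*, *Lrig1* and *Cd44* are each in more than 1 list, so their calls are counted more than once.

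In the small intestine none of 62 Wnt pathway genes tested was called, where 2.95% of all genes were, and the Wald test of DESeq2 made 0 calls. An unadjusted p under 0.05 in the quasi-likelihood test was found for 2 of the 62, against 12.3% of all genes. The largest log2 fold changes by role were -0.49 for *Wnt3*, a ligand made by Paneth cells, -0.60 for *Rspo2*, -0.68 for *Lgr4* (adjusted p = 0.187), -0.94 for *Lef1* and -0.70 for the antagonist *Sostdc1*. *Rspo2*, *Lef1* and *Sostdc1* had at most 50 counts in a library of small intestine. In each of them IMQ 11 was the lowest library, with 9, 9 and 8 counts, against 20, 27 and 27 in IMQ 10. Of 16 other crypt base genes, 14 were below 0, with a median of -0.28 against -0.02 over all genes. The exception that passed the test was *Cd44*, with 3185, 2607 and 2898 normalized counts with vehicle and 4743 and 4962 with IMQ (log2 0.74, adjusted p = 0.0276). The call of *Cd44* held without vehicle 7 and was lost without each of the other 4 libraries of small intestine (adjusted p from 0.0907 to 0.200) and in the joint model of 11 libraries (0.0582). CD44 is also a surface protein of leukocytes. Of 10 leukocyte markers, 5 were called higher in the IMQ-treated small intestine, where 2.77% of all genes were, and none lower. A log2 fold change below 0 was found for 4 of the 10. *Cd3e* had 527, 356 and 620 counts with vehicle and 326 and 294 with IMQ. The part of leukocytes in the *Cd44* counts was not tested.

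**Figure D5:**
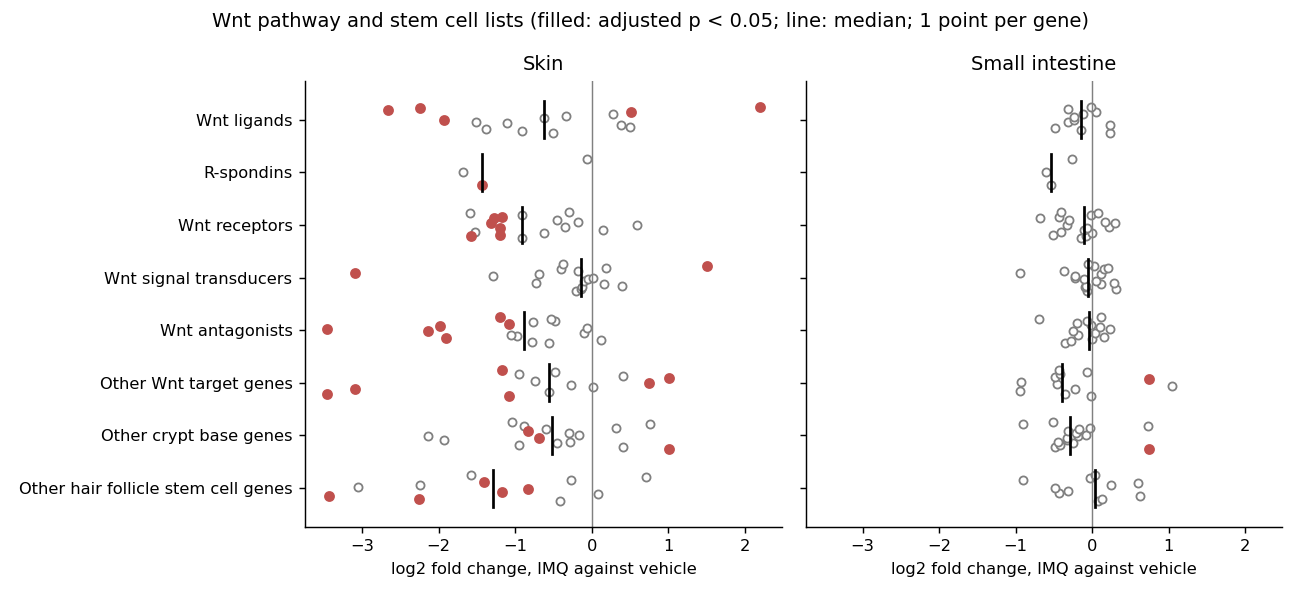
Log2 fold change of IMQ against vehicle (horizontal axes, shared) for the tested genes of 8 lists of the Wnt pathway and of stem cells (rows), in skin (left) and small intestine (right); each point is a gene, filled red where the adjusted p was under 0.05, and black lines are list medians. In skin the median of the receptors is -0.91 and that of the other hair follicle stem cell genes -1.29, whereas the Wnt pathway lists of small intestine hold no filled point.

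Paneth cells neighbour the crypt stem cells, and proliferation genes report dividing cells of both tissues. Of 7 genes listed as Paneth cell markers none was called in small intestine, and 6 were below 0. The exception was *Guca2b* (log2 0.39). *Nupr1* had more counts in vehicle skin (8291, 6214 and 3266) than in vehicle small intestine (806, 1815 and 1667), so the list is not specific to Paneth cells. Its sum was 545963 to 638540 (638539.6) normalized counts with vehicle and 429655 (429654.5) and 452593 with IMQ. The 13 proliferation genes summed to 39696 to 51897 with vehicle and 43198 and 43518 with IMQ, so the groups overlapped. In skin the proliferation sum was 24869 in vehicle 2, below the IMQ libraries (39252.5 to 46765), and 70800.1 and 74019 in vehicles 1 and 3. Their part in the member results was not tested.

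The profile over the 11 libraries, as log2 normalized count relative to the vehicle mean of each tissue, was compared with that of 13977 genes. The root mean square difference between *Axin2* and *Rnf43* was 0.110, and each was the nearest gene of the other. The nearest genes to *Lgr5* were *Lepr* (0.308) and the Wnt antagonist *Sfrp1* (0.332), and to *Tnfrsf19* they were *Arhgef26* (0.144) and *Trim2* (0.159). *Sox9* was nearest to *Cables1* (0.160) and *Zfp13* (0.196), *Prom1* to *Sypl* (0.0975) and *Aldh1l1* (0.0993), *Smoc2* to *Thsd7a* (0.111) and *Nr4a2* (0.117), and *Ascl2* to *Dgkg* (0.226) and *Abhd14b* (0.228).

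On GRCm38, *Axin2* (108917828 to 108950783), *Rnf43* (87663087 to 87735539) and *Sox9* (112782210 to 112787757) lie on chromosome 11 and *Olfm4* (80000302 to 80023141) and *Tnfrsf19* (60963834 to 61046855) on chromosome 14. *Lgr5* is on chromosome 10 (115450314 to 115587780), *Ascl2* on 7 (142966822 to 142969264), *Smoc2* on 17 (14279490 to 14404790) and *Prom1* on 5 (43993621 to 44102047). *Ascl2* and *Sox9* overlapped no other annotated gene. Of 9 genes that overlap the other members, 5 were in the table, with at most 34 counts in a library. That count was of *Gm41168*, opposite *Tnfrsf19*, in IMQ-treated skin 6, and it had 13 and 19 counts in small intestine vehicles 7 and 8 and at most 4 in every other library. Whether reads were assigned by strand is not given in the sources used here.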

How the data were processed

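RNA was sequenced by the authors as 100-bp paired-end reads of a stranded mRNA library and aligned to mm10 with HISAT2 2.1.0. They quantified genes with StringTie 2.1.3b and deposited raw read counts as whole numbers. Beside them the authors deposited FPKM, scaled by the authors for length and library size and used here for levels, and TPM, which was not used. How counts were made from StringTie output, and the handling of strand and of reads that match several genes, are not given in the sources used here.

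Genes with at least 1 count in every library of a fit were normalized by relative log expression and tested with edgeR 4.0.16 (quasi-likelihood test, R 4.3.3), adjusted over every tested gene (Benjamini-Hochberg, threshold 0.05). Skin and small intestine were fitted separately. The tissue difference and the interaction came from 1 model of 11 libraries. Biological variation (edgeR's coefficient) was 0.245 for skin and 0.215 for small intestine. Normalized counts are on the scale of an average library of that tissue. No batch was given in the labels. The floor for a count of 0 is 3 counts and covers counting error only.

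Members and lists were chosen with earlier results of these data known. Named are the 9 members, list genes that were called, the 2 largest changes per list among those not called, and the 2 genes with the most similar profile. Of the 2 largest changes, some are not described. *Foxn1* and *Krt25* were named after their values were seen. The settings varied were normalization (TMM, upper quartile), the tool (DESeq2 1.42.0, limma-voom from limma 3.58.1), the filter (filterByExpr, none), FPKM in place of counts (limma, pseudocounts 0.01 and 1), a joint model for the effects within each tissue, and the omission of single libraries. The scripts were tested on simulated data.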

Additional observations from a re-analysis of the deposited data

Results flagged for a closer look

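The response to IMQ differed between the tissues, by the interaction test of edgeR's quasi-likelihood model with Benjamini-Hochberg adjustment, for 5 of 88 genes tested from the Wnt and stem cell lists (5.68%, against 2.55% of all 18108 genes) and for none of the 8 members tested. The difference, small intestine minus skin, was 2.39 ± 0.40 (log2, SE, adjusted p = 0.0127) for the bulge keratin *Krt15*, which had at most 17.7 normalized counts in any library of small intestine. It was 1.62 ± 0.32 for *Soat1* (adjusted p = 0.0280), 1.14 ± 0.23 for *Fzd7* (adjusted p = 0.0309), -1.20 ± 0.23 for *Myc* (adjusted p = 0.0214) and -1.47 ± 0.21 for *Porcn* (adjusted p = 0.00580). *Porcn* was called without each of the 11 libraries in turn, and *Krt15* without 9, *Myc* without 6, *Soat1* without 4 and *Fzd7* without 3 of them.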

How the results depend on the processing

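The members called in skin numbered 1 to 3 when a library was left out and 1 with limma on log2(FPKM + 1). In small intestine they were 0 to 1, and 1 by the Wald test of DESeq2. In the interaction they were 0 to 1, with 2 by DESeq2 and 1 with limma on log2(FPKM + 1). Genes called over left-out libraries were 258 to 2521 in skin, 294 to 801 in small intestine and 144 to 1072 in the interaction. The lowest came without skin IMQ 5, small intestine IMQ 10 and small intestine IMQ 10, and the highest without skin vehicle 2, small intestine vehicle 7 and skin vehicle 2. DESeq2 called 3030, 1206 and 1281 genes, limma on log2(FPKM + 1) called 894 in skin, the unfiltered interaction 301, and the unfiltered skin without vehicle 2, added after the data were seen, 2341. Wnt pathway genes called were 2 to 31 in skin, 0 to 1 in small intestine and 1 to 17 in the interaction over left-out libraries. In skin they were 33 by DESeq2, 13 with limma at the FPKM pseudocount of 0.01 and 9 at that of 1. In the interaction they were 11 by DESeq2, 1 without the filter, and 1 and 5 with limma at the FPKM pseudocounts of 0.01 and 1.

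The sign turned for values near 0. In skin, *Ascl2* ranged from -0.50 to 0.10 over left-out libraries, with 0.10 (0.0959) in the unfiltered fit without vehicle 2, and *Prom1* from -0.027 to 0.34. *Olfm4* turned to 4.43 in that fit. In the interaction *Ascl2* ranged from -0.40 to 0.24, *Axin2* from -0.13 to 0.086 and *Rnf43* from -0.034 to 0.25. The cause was not tested.

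*Ascl2* and *Prom1* in skin rested on at most 281 normalized counts a library, fewer than the other tested members. The labels do not state whether skin and small intestine came from the same mice, and the replicate numbers 1 to 11 are not shared between groups. No paired analysis was therefore possible. The tissue difference and the interaction treat the 11 libraries as independent.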
